A study of Bos taurus with 12 samples.

Results

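Japanese Black (JB) cattle are bred for beef with much marbling, and Holstein (HS) cattle for milk. The comparison described here is the difference between JB and HS steers in the average of their fat depots, intramuscular fat (IMF, the marbling fat inside a muscle) and subcutaneous fat (SCF, the fat beneath the skin). All 12 samples of the series entered it, 6 of JB and 6 of HS, and 24016 probe sets of the Affymetrix bovine array were described, out of 24128 once 112 control probe sets had been set aside. In each breed, samples 1 to 3 were IMF and samples 4 to 6 were SCF, so every combination of breed and depot held 3 samples. All animals received an energy-rich diet, and there was no group on another diet. Each value is the signal of a probe set as deposited, on a linear scale, and each difference is JB minus HS on the scale of log2(signal + 16) after quantile normalization, so a positive value means a higher level in JB and the change of dim genes is understated.

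White fat stores triacylglycerol in adipocytes and also holds stromal, vascular and immune cells. Intramuscular and subcutaneous adipocytes of cattle share the main lipid enzymes but grow at different times and in different surroundings. Agouti signalling protein, one of the genes in which cattle breeds are known to differ, is secreted and blocks melanocortin receptors, which act on pigment in the skin and on energy balance elsewhere. Imprinted genes, which are read from one parental copy only, and class I molecules of the major histocompatibility complex (MHC), which present peptides and are highly variable between animals, are other families described below.

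The labels give no animal numbers, so whether an IMF and an SCF sample came from the same steer is not stated. If they did, 6 samples of a breed would stand for 3 animals. The p-values of the breed difference over both depots would then be too small. Those for a difference between depots, a comparison within animals, could be too large. Neither was tested. The p-values measure only the spread between these samples, which may in part be technical. Deviations from the mean of a group cancel out within it, so each IMF sample must have correlations of both signs with SCF samples. Each IMF sample had its highest correlation of deviations from the group mean with a different SCF sample of its breed. In JB these were 0.37 between IMF 1 and SCF 4, 0.19 between IMF 2 and SCF 5 and 0.14 between IMF 3 and SCF 6. The values in HS were 0.40 between IMF 2 and SCF 4, 0.20 between IMF 1 and SCF 5 and 0.19 between IMF 3 and SCF 6, and the remaining correlations within a breed ran from -0.34 to 0.12. HS IMF 3 and HS SCF 6, matched in this way, also share a pattern at most MHC class II DQ probe sets, given below. The same arrays had the highest maximum signals, 152000 in HS IMF 3 and 222700 in HS SCF 6. The maximum of HS SCF 6 was the signal of a BOLA-DQB1 probe set of that pattern. This probe set read 41410 in HS IMF 3, so the maximum of HS IMF 3 came from another probe set. In all other samples the maximum was 15760 to 19080. Whether the likeness of these samples is in part technical was not tested. If depots share animals, likeness of the breed differences in IMF and SCF is not independent evidence.

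The arrays of the breeds were not equally alike. The mean correlation of a sample with its own group was 0.964 to 0.975 in JB and 0.862 to 0.944 in HS, and the median signal was 77.5 to 88.6 in all samples but HS IMF 3, at 58.8. The ratio of 3' to middle signal of the eIF-4E control, which rises as RNA degrades, was 3.93 to 4.82 in JB. In HS it was 7.94, 5.87 and 4.39 in IMF and 6.45, 7.25 and 3.66 in SCF, so 4 HS samples lay above every JB sample and HS IMF 3 and HS SCF 6 did not. This division rests on 1 of 4 such controls. By the 3' to 5' ratio of cyclophilin, HS IMF 2 at 1.893 and HS SCF 4 at 2.318 lay within JB, at 1.885 to 2.606. By that of GAPDH, HS IMF 2 at 1.57 lay within JB, at 1.291 to 2.188, and by that of EF1a, HS SCF 4 at 0.7935 lay within JB, at 0.5566 to 0.8324. The mean log2 level of the adipocyte markers was 10.20 to 12.27 in JB IMF, 11.26 to 11.54 in HS IMF, 12.20 to 12.45 in JB SCF and 12.23 to 12.43 in HS SCF. Skeletal muscle fibre markers averaged 11.95 to 12.52 in JB IMF and 11.56 to 12.56 in HS IMF, against 6.39 to 8.23 in JB SCF and 6.20 to 8.27 in HS SCF, so the IMF samples of both breeds held muscle RNA at overlapping levels. In such bulk samples, fewer cells of a type and less RNA per cell cannot be told apart.

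Few probe sets differed between the breeds in the depots together, and those that did differed by more than 2-fold. In limma's moderated test with Benjamini-Hochberg adjustment over all 24016 probe sets, 4 were higher in JB (0.0167% of those tested) and 2 were lower (0.00833%). The 4 were ASIP, the MHC class I gene BOLA-N, a further class I probe set and the matrix gene LTBP2, and the 2 were the imprinted gene NNAT and a probe set with no gene name. At an unadjusted p below 0.05 there were 2567 probe sets where 1200.8 would be expected without any difference, 1408 higher (5.86%) and 1159 lower (4.83%). By contrast, 2151 probe sets (8.96%) passed between IMF and SCF with the same samples and the same median standard error of 0.22. The median absolute difference was 0.21 between breeds and 0.26 between depots, and 272 and 1542 probe sets differed more than 2-fold.

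**Figure D1:**
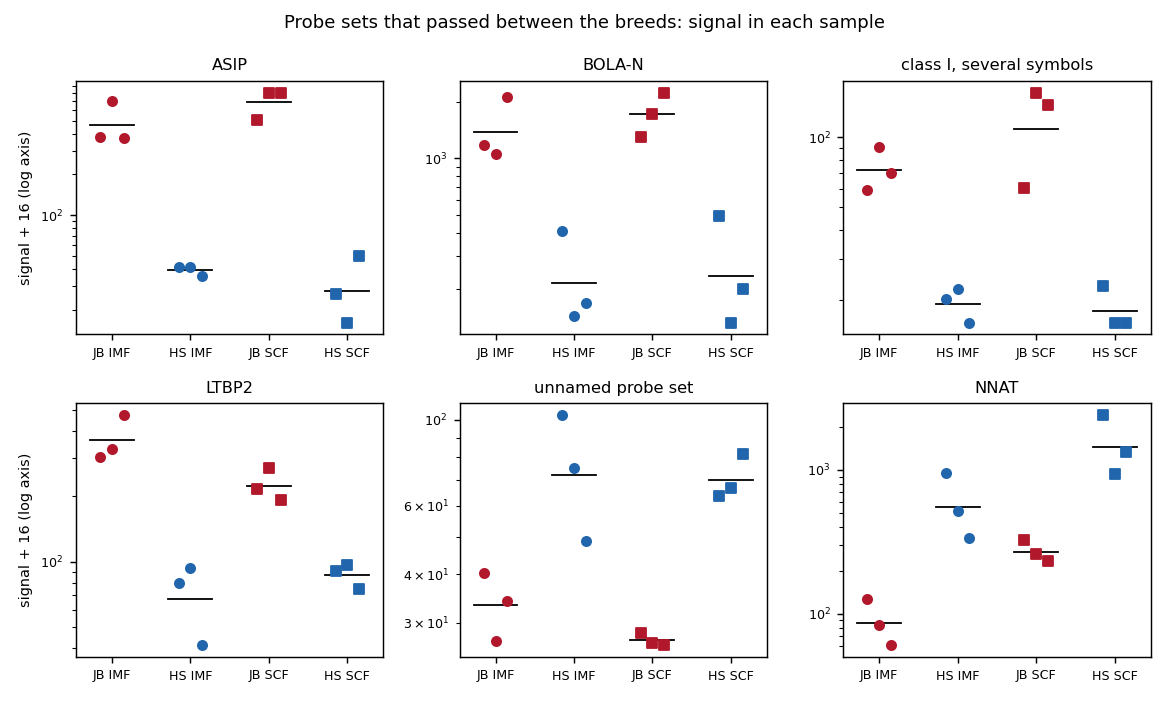
Signal + 16 (log axis, array units) of the 6 probe sets that passed between the breeds, in each of the 12 samples; circles are IMF, squares SCF, red JB, blue HS, and bars are geometric means of 3 samples. In every panel all 6 JB samples lie on one side of all 6 HS samples; ASIP, BOLA-N, the class I probe set with several symbols and LTBP2 are higher in JB, and NNAT and the unnamed probe set are lower.

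ASIP, the agouti signalling protein, had the largest difference of those that passed. Its signal was 364.9, 678.1 and 355.3 in JB IMF and 492.8, 786.6 and 788.5 in JB SCF. In HS it was 25.5, 25.7 and 19.9 in IMF and 10.4, 0.06 and 33.9 in SCF. Every JB sample thus lay far above every HS sample, and all HS values lay below the median signal of their arrays. The difference was 3.94 ± 0.30 (SE, n = 6 samples per breed), 15.4-fold on this scale, with an adjusted p of 0.000145 (limma). It was 3.39 in IMF and 4.49 in SCF, and the test of the difference between the depots gave an unadjusted p of 0.0697. ASIP passed in each of the 31 alternative analyses tried, with adjusted p between 5.98e-05 and 0.0428.

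Around ASIP, the receptors and partners of its pathway did not pass. The agouti and melanocortin list held 11 measured genes, the receptors, the hormone precursor POMC and pigment enzymes among them, of which 3 including ASIP had a positive difference, and its median was -0.18 against 0.04 over all 9155 named genes. MC1R, the melanocortin receptor of pigment cells, read 29.7 to 49.9 in JB and 37.0 to 83.5 in HS, a difference of -0.35 ± 0.16 (SE) with an adjusted p of 0.466 (limma). Markers of keratinocytes and melanocytes, which SCF lying next to skin could hold, averaged a log2 level of 5.88 to 6.18 in JB IMF, 5.93 to 6.26 in HS IMF, 6.21 to 6.37 in JB SCF and 6.39 to 6.52 in HS SCF. Their part in the ASIP difference was not tested.

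NNAT (neuronatin), a small membrane protein of the endoplasmic reticulum encoded by an imprinted gene, fell by 2.76 ± 0.27 on the log2 scale (SE, n = 6 samples per breed), 6.78-fold lower in JB, with an adjusted p of 0.00112 (limma). Signals in IMF were 111.0, 68.4 and 44.5 in JB against 942.6, 500.9 and 322.5 in HS. Signals in SCF were 311.2, 245.8 and 215.6 in JB against 2395, 922.3 and 1318 in HS. Both breeds had more NNAT signal in SCF than in IMF in the group averages, and JB and HS did not overlap in either depot or over both. The difference was -3.003 in IMF and -2.52 in SCF. A second, dimmer NNAT probe set had a difference of -1.43, with an adjusted p of 0.317. NNAT passed in 30 of 31 alternatives; without the depot term the adjusted p was 0.0866.

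Of the 18 measured imprinted genes, NNAT was the 1 that passed, and 5 had a positive difference. Their median was -0.24, and 3 were lower and 0 higher at an unadjusted p below 0.05, against 3.89% and 6.15% of all named genes. CDKN1C, an inhibitor of cyclin-dependent kinases, read 1905 to 3649 in JB and 2824 to 7403 in HS, with a difference of -0.88 ± 0.25 (SE) and an adjusted p of 0.359 (limma). The long noncoding RNA MEG3 read 340.4 to 851.0 in JB and 258.4 to 3338 in HS, with a difference of -1.13 ± 0.46 and an adjusted p of 0.443. For CDKN1C and MEG3 the breeds overlapped. The other 2 CDKN1C probe sets had -0.82 and -1.25, and the other 4 of MEG3 had -0.97 to -0.24. None of these passed.

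BOLA-N, a class I heavy chain gene, was 2.54 ± 0.34 higher in JB (SE, n = 6 samples per breed), or 5.80-fold, with an adjusted p of 0.0229 (limma). JB signals were 1156, 1034 and 2101 in IMF and 1283, 1716 and 2231 in SCF. HS signals were 393.7, 127.3 and 153.0 in IMF and 474.2, 115.9 and 184.9 in SCF. The lowest JB sample was more than 2-fold above the highest HS sample. BOLA-N passed in 19 of 31 alternatives. With a sample left out its adjusted p was 0.0684 for JB IMF 3, 0.0583 for JB SCF 4, 0.0898 for JB SCF 5, 0.0928 for JB SCF 6, 0.0587 for HS IMF 2 and 0.0805 for HS SCF 6, with differences from 2.40 to 2.61 in these.

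A second class I probe set, which carries several symbols, was 2.17 ± 0.24 higher in JB (SE), with an adjusted p of 0.00439 (limma). Its signals were 43.4, 74.6 and 54.0 in JB IMF and 44.4, 139.2 and 121.1 in JB SCF, against 4.30, 6.35 and 0.01 in HS IMF and 7.06, 0.05 and 0.01 in HS SCF. HS was at or near the floor of the array in all samples, and every JB sample lay above it. The size of the difference therefore depends on the pseudocount: it was 4.61 with 1 added to each signal and 1.01 with 64 added, where the adjusted p was 0.0798 (limma). It passed in 25 of 28 alternatives; the other two were the replicate block (0.103) and JB SCF 6 and HS SCF 5 left out (0.0730). No gene is named for it, and the suffix of its identifier marks probes that can match more than one transcript. Another class I probe set, whose name shares a stem with it, had -0.45 ± 0.26 (SE), and the breeds overlapped. A further class I probe set with several symbols read 35.2 to 80.5 in JB and 12.6 to 28.8 in HS. Its difference was 0.93 ± 0.19 (SE), with an adjusted p of 0.191 (limma). These probe sets were picked after their values were seen.

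The class I difference did not extend to the brightest class I probe sets. The array held 23 probe sets with class I symbols, 3 of them with 1 symbol. The 5 with a mean log2 level over 10 had differences from -1.12 to 0.14, and in 0 of these did the breeds separate in both depots. Class I genes share long stretches of sequence, so how the signal divides among them is uncertain. Among the 13 measured genes of class I presentation and peptide loading, 9 had a positive difference, with a median of 0.14. CALR (calreticulin), a chaperone of class I assembly, had a difference of 0.71 ± 0.24 (SE) that did not pass (adjusted p 0.432, limma).

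Class II probe sets divided the HS samples rather than the breeds; those given here were chosen after their values were seen. BOLA-DQA5 read 1293 in HS IMF 3 and 4646 in HS SCF 6, and 3.85 to 26.1 in the other 10 samples. One BOLA-DQB1 probe set read 41410 and 222700 in these same samples and 33.9 to 147.9 elsewhere. One BOLA-DQA2 probe set went the other way, at 70.9 and 18.98 against 624.1 to 5002. The breed differences of these probe sets, -2.55 ± 1.195, -2.60 ± 1.47 and 1.45 ± 1.02 (SE), did not pass with all samples. BOLA-DQB divided the pair, at 188.7 in HS IMF 3 and 10550 in HS SCF 6 against 129.4 to 296.6 in the other 10 samples. Another BOLA-DQB1 probe set read 1708 in HS IMF 3 and 6991 in HS SCF 6, against 302.1 to 2835. Of the 11 measured class II genes, counted through the brightest probe set of each, 0 passed and 0 had an unadjusted p below 0.05. Dimmer probe sets of BOLA-DRB3 and BOLA-DQA2 had -0.98 ± 0.41 and 1.84 ± 0.80 (SE), with adjusted p of 0.448 and 0.450 (limma). BOLA-DRA, the DR alpha chain, read 1176 to 6883 in JB and 1400 to 6261 in HS.

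**Figure D2:**
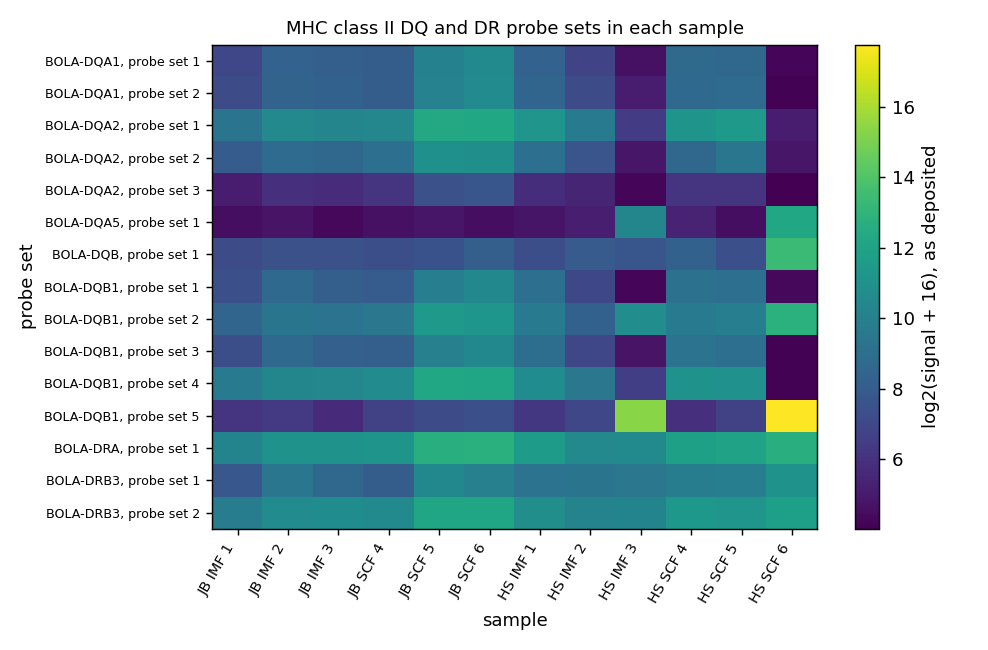
Log2(signal + 16) of the deposited signals (colour) of MHC class II DQ and DR probe sets (rows) in the 12 samples (columns). HS IMF 3 and HS SCF 6 are bright for BOLA-DQA5 and one BOLA-DQB1 probe set (1293 and 4646, 41410 and 222700) and dark for most other DQ probe sets, while the DR probe sets show no such division. BOLA-DQB is bright in HS SCF 6 (10550) but not in HS IMF 3 (188.7).

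LTBP2, a latent TGF-beta binding protein found with elastic microfibrils, was 1.75 ± 0.24 higher in JB (SE, n = 6 samples per breed), or 3.36-fold, with an adjusted p of 0.0229 (limma). Its signals were 287.8, 314.5 and 457.2 in JB IMF against 63.5, 77.9 and 25.2 in HS IMF. In SCF they were 199.0, 253.1 and 176.1 in JB against 75.1, 80.5 and 59.1 in HS. The breeds did not overlap in either depot, and the difference was 2.25 in IMF and 1.24 in SCF (unadjusted p for the difference between depots 0.0308). LTBP2 passed in 15 of 30 alternatives. Leaving out HS IMF 3, HS SCF 4 or HS SCF 5 kept the call, and leaving out any other single sample (each JB sample, HS IMF 1, HS IMF 2, HS SCF 6) gave an adjusted p of 0.0550 to 0.0898.

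A brighter LTBP2 probe set had a smaller difference, 0.92 ± 0.25 (SE), which did not pass (adjusted p 0.346, limma), although JB and HS did not overlap in either depot there too. Of 20 measured genes of the LTBP and TGF-beta list, counted through the brightest probe set of each, 0 passed, 11 had a positive difference, and the median was 0.08.

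The unnamed probe set fell by 1.28 ± 0.18 on the log2 scale (SE), 2.43-fold lower in JB, with an adjusted p of 0.0229 (limma). Signals were 24.4, 10.9 and 18.1 in JB IMF and 12.3, 10.5 and 10.2 in JB SCF, against 87.0, 58.9 and 32.9 in HS IMF and 47.5, 50.6 and 65.8 in HS SCF. It is dim in both breeds and passed in 11 of 28 alternatives. Leaving out JB IMF 1, HS IMF 3 or HS SCF 4 kept the call, and each other sample left out gave an adjusted p of 0.0587 to 0.1025.

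With the eIF-4E ratio as a covariate, the adjusted p was 0.00179 for ASIP, 0.00720 for the class I probe set with several symbols, 0.00780 for NNAT, 0.0352 for LTBP2, 0.0505 for BOLA-N and 0.109 for the unnamed probe set. Without the 4 HS samples whose ratio lay above JB, the differences were 3.58 for ASIP, 2.41 for the class I probe set with several symbols, 2.61 for BOLA-N, 2.19 for LTBP2, -2.59 for NNAT and -1.15 for the unnamed probe set, and the last alone no longer passed. The counts of probe sets that passed were 16 with the covariate and 30 without these samples. Class II probe sets made up 9 of the probe sets added with the covariate and 4 of those added without the 4 samples, BOLA-DQA5 in both. The HS samples left were HS IMF 3 and HS SCF 6, which share the class II DQ pattern given above, so the count of 30 compares JB with that pair.

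No probe set passed the test of a breed difference that differs between the depots (0%), with 573 at an unadjusted p below 0.05 against 1200.8 expected; with array weights the count was also 0. The median standard error of that test was 0.43, so a difference between depots had to be larger than a breed difference to be seen. Across all probe sets the IMF and SCF differences had Pearson r = 0.32 and the same sign in 60.7%; the probe sets are not independent and each depot's values come from 1 set of 6 samples. JB and HS did not overlap in IMF for 1515 probe sets higher and 1756 lower in JB, and in SCF for 1327 and 1523. In both depots, 195 were higher each time (0.812%), 252 lower each time (1.05%), and 75 went opposite ways. Overlap is judged on the normalized scale.

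**Figure D3:**
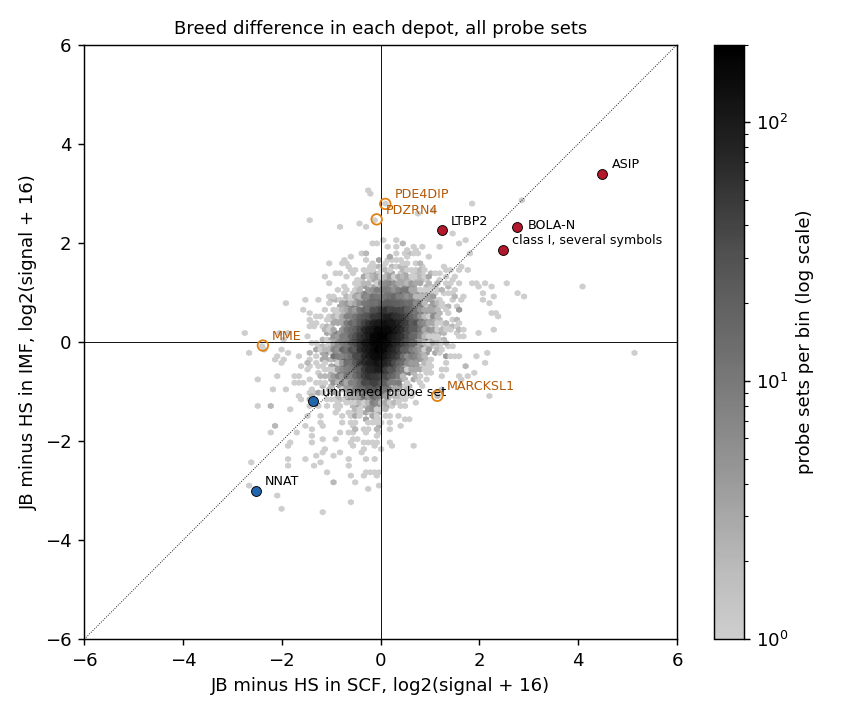
Breed difference (JB minus HS, log2(signal + 16)) in IMF against that in SCF for 24016 probe sets; grey is the number per bin (log scale), filled points the 6 that passed and open points 4 of the genes with the smallest p for a difference between depots. The filled points have the same sign in both depots, from NNAT at -3.003 and -2.52 to ASIP at 3.39 and 4.49, in IMF and SCF.

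The genes described next were chosen for the smallest p for a difference between depots, so the contrast between their depots is a description. Within a depot, PDE4DIP in IMF was the 1 of these 10 to pass (adjusted p 0.00764, limma). PDE4DIP, an anchor of phosphodiesterase, read 361.0, 356.2 and 817.4 in JB IMF and 43.9 to 59.6 in the other 9 samples. Its breed difference was 2.79 in IMF and 0.09 in SCF (unadjusted p 1.74e-05, adjusted 0.417, limma). Its other 4 probe sets had differences over both depots from -0.61 to 0.72; the brightest had -0.84 in IMF and -0.38 in SCF, and another 0.71 in each. PDZRN4 and AMIGO2, a neuronal adhesion protein, had IMF differences of 2.47 and 2.00 and SCF differences of -0.08 and -0.18, and BRD8 had 0.88 and -0.46, while a brighter BRD8 probe set had -0.06 and -0.18. The membrane peptidase MME read 4.26 to 11.1 in JB SCF and 47.3 to 178.6 in HS SCF, with differences of -0.07 in IMF and -2.38 in SCF.

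In the other direction, MARCKSL1, an actin-binding protein, read 291.9 to 553.3 in JB SCF against 159.4 to 176.9 in HS SCF, while JB IMF read 162.4 to 263.9 against 227.1 to 459.2. Its differences were -1.09 in IMF and 1.15 in SCF. RGS16, a regulator of G protein signalling, had -0.53 and 1.25, the mRNA-destabilizing ZFP36 -0.27 and 1.41, the lactate transporter SLC16A3 -0.66 and 0.95, and ADAM19 -0.77 and 0.47. Another SLC16A3 probe set of similar level had -0.89 in IMF and -0.01 in SCF, and a dim one had 0.05 and -0.004. The adjusted p for the difference between depots was above 0.05 in each of these 10 genes with all samples. SELE, the endothelial adhesion molecule E-selectin, read 4492, 7051 and 8802 in JB SCF and 1697, 45.2 and 28.4 in HS SCF, and 22.0 to 146.7 in IMF. Its difference between depots passed once HS SCF 4, the 1697 sample, was left out.

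Among the 9155 named genes, 95 were higher in JB without overlap in either depot (1.04%) and 76 lower (0.830%). These counts use the brightest probe set of each gene. The 15 genes with the largest difference in each direction, taken over all probe sets with 1 symbol, are described next. By their brightest probe set PSAP, GRO1, LOC282255 and NADSYN1 did not separate and are not in those counts. The genes were picked after their values were seen, so these are descriptions, and besides ASIP, BOLA-N, LTBP2 and NNAT none passed. GNB4, a beta subunit of G proteins, read 402.0 to 687.1 in JB and 12.9 to 194.6 in HS, with a difference of 2.34 ± 0.38 (SE) and an adjusted p of 0.0983 (limma). It passed in 7 of 31 alternatives, among them without HS IMF 3, at 0.0258. HP (haptoglobin), a plasma protein that binds haemoglobin, read 1058 to 12880 in JB and 12.9 to 894.7 in HS, with 2.63 ± 0.82 and an adjusted p of 0.399. Its difference was 1.14 in IMF and 4.11 in SCF.

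**Figure D4:**
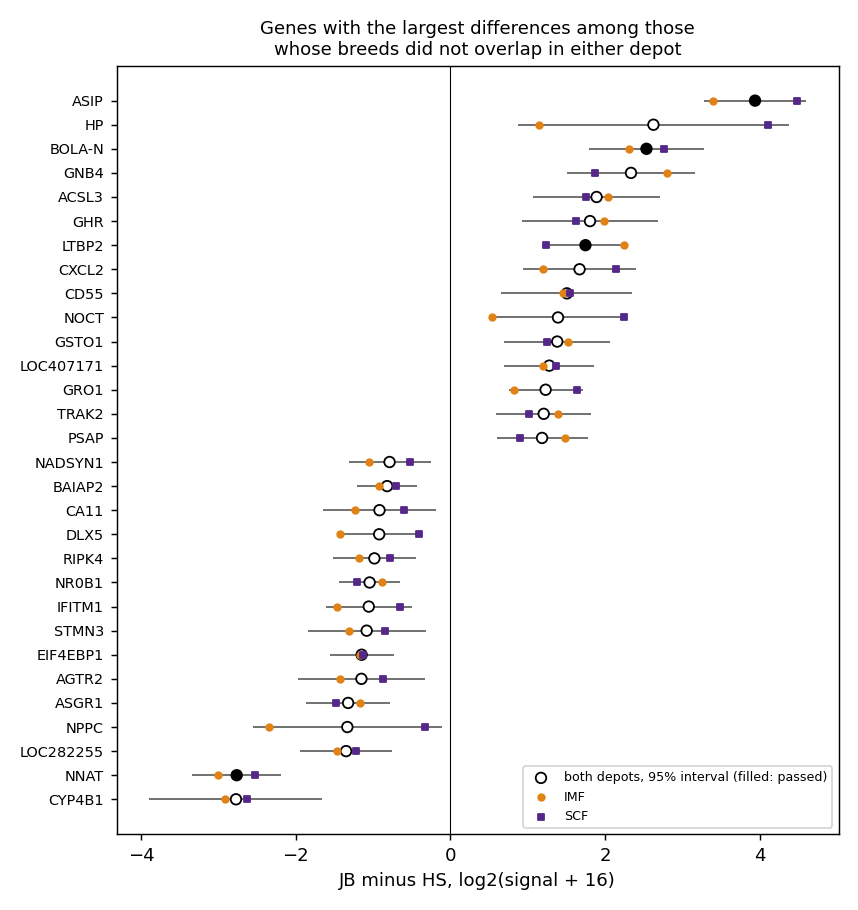
JB minus HS difference, log2(signal + 16), of the 15 genes highest and 15 lowest in JB among genes with a probe set whose breeds did not overlap in either depot, each shown through that probe set. Large points are the average over depots with 95% intervals (filled where the adjusted p was below 0.05), orange IMF and purple SCF; ASIP (3.94), BOLA-N (2.54), LTBP2 (1.75) and NNAT (-2.76) are filled, and both depots fall on the same side of 0 for each gene.

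ACSL3, which joins coenzyme A to long-chain fatty acids, read 192.0 to 810.6 in JB and 20.8 to 131.4 in HS, with 1.89 ± 0.38 (SE) and an adjusted p of 0.191 (limma), and its other 2 probe sets had 1.22 and 1.29. GHR, the growth hormone receptor, read 527.9 to 2695 in JB and 99.6 to 912.7 in HS, with 1.81 ± 0.41 and an adjusted p of 0.258. The other 10 GHR probe sets, all dimmer, had differences from -0.41 to 0.30. GSTO1, a glutathione transferase, read 321.4 to 555.0 in JB and 37.5 to 240.8 in HS (1.38 ± 0.32).

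The rest of the higher genes were smaller in difference. NOCT (nocturnin), a circadian phosphatase of nicotinamide dinucleotides, had 0.54 in IMF and 2.25 in SCF. TRAK2, an adaptor that ties mitochondria to motor proteins, had 1.21 ± 0.28 (SE). One dim probe set of PSAP, the precursor of lysosomal saposins, had 1.19 ± 0.27, while its other 3 had 0.06 to 0.60. LOC407171 had 1.28 ± 0.27. CXCL2, GRO1 and CD55 are described with their lists.

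Of the lower genes, EIF4EBP1, which restrains cap-dependent translation and is a target of insulin signalling, read 100.3 to 192.5 in JB and 215.6 to 488.8 in HS. The samples did not overlap, and the difference was -1.15 ± 0.19 (SE), with -1.17 in IMF and -1.13 in SCF and an adjusted p of 0.0983 (limma). NR0B1 (DAX1), a nuclear receptor that represses steroid hormone synthesis, had -1.04 ± 0.18 and an adjusted p of 0.142. Its signal was 169.5 to 299.6 in JB and 225.0 to 634.6 in HS; the 225.0 is HS IMF 3, whose array was dimmer as a whole and which lay above JB once normalized. A second NR0B1 probe set had 0.01.

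CYP4B1, a cytochrome P450, read 12.5 to 48.5 in JB and 845.2, 583.7 and 96.8 in HS IMF and 302.4, 504.5 and 27.3 in HS SCF. HS IMF 3 and HS SCF 6 were thus the lowest of HS and nearer JB. The difference was -2.77 ± 0.52 (SE) with an adjusted p of 0.182 (limma), and 0.00610 without HS SCF 6. ASGR1, a subunit of the asialoglycoprotein receptor, read 0 to 7.55 in JB, at the floor of the array, and 6.53 to 82.9 in HS (-1.32 ± 0.25, adjusted p 0.182).

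The interferon-induced membrane protein IFITM1 read 455.5 to 1621 in JB and 1125 to 2717 in HS (-1.05 ± 0.26, SE), and LOC282255, measured by a probe set whose name shares its stem, had -1.35 ± 0.28. The other IFITM1 probe set had -0.21, and a brighter LOC282255 probe set had -0.07. AGTR2, a receptor of angiotensin II, had -1.15 ± 0.38, while its other 2 probe sets had -0.01 and 0.06. The tubulin-binding STMN3 had -1.08 ± 0.35 (-0.41 and -0.22 at its other 2 probe sets), the kinase RIPK4 -0.98 ± 0.25 and the carbonic anhydrase-related CA11 -0.92 ± 0.34. DLX5, a homeobox gene, read 4.15 to 16.3 in JB IMF against 37.3 to 56.0 in HS IMF, and 43.2 to 51.1 in JB SCF against 55.9 to 71.6 in HS SCF; its other probe set, near the floor, had a difference of -0.06. NPPC (C-type natriuretic peptide) rested largely on HS IMF 2, at 2708 against 89.5 to 255.7 in the other HS samples. BAIAP2 had -0.82 ± 0.18 and NADSYN1, which makes nicotinamide dinucleotide, -0.79 ± 0.25, while a brighter NADSYN1 probe set had 0.10.

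Genes of fat cell identity and lipid metabolism showed no breed difference that passed. The medians were -0.05 over 7 adipocyte markers, -0.01 over 21 genes of fatty acid synthesis, -0.09 over 14 of triacylglycerol synthesis, -0.03 over 15 of lipid droplets and lipolysis, -0.05 over 17 of fatty acid uptake and -0.13 over 15 adipogenic regulators, with 0 passing in each. Fatty acid synthesis genes had a median of 0.16 in IMF, with 17 of 21 positive, and -0.26 in SCF, with 5 of 21 positive. The medians over all probe sets were 0.02 and -0.01. Adipogenic regulators had medians of -0.20 in IMF and 0.06 in SCF. INSIG1, which holds back the sterol-sensing SREBP factors, read 397.2 to 994.2 in JB and 414.7 to 1590 in HS, with -0.80 ± 0.25 (SE) and an adjusted p of 0.410 (limma). LPL (lipoprotein lipase), which frees fatty acids from circulating lipoproteins, read 2154 to 5637 in JB and 2606 to 10990 in HS, with -0.77 ± 0.29. PPARA, a nuclear receptor of fatty acid oxidation, read 55.4 to 93.7 in JB and 19.7 to 59.7 in HS and did not overlap in either depot. Its difference was 0.80 ± 0.18 with an adjusted p of 0.258 (limma). Its other, dimmer probe set had -0.51 and also did not overlap in either depot, in the opposite direction.

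Further lipid genes had overlapping samples. ABHD5, the activator of adipose triglyceride lipase, read 36.6 to 361.2 in JB and 19.6 to 94.9 in HS (1.31 ± 0.39, SE). ADRB3, the adrenergic receptor that drives lipolysis, had -0.72 ± 0.28, and GK (glycerol kinase) 0.81 ± 0.27. KLB, a co-receptor of fibroblast growth factor 21, had -1.21 ± 0.43, while its other 3 probe sets had -0.85 to -0.11. The cholesterol genes, 15 in all with a median of 0.18, had medians of 0.54 in IMF and -0.13 in SCF; SQLE, an enzyme of sterol synthesis, had 0.67 ± 0.26.

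Some groups of genes leaned higher in JB without a member that passed. Over all named genes, 55.2% had a positive difference, 6.15% were higher and 3.89% lower at an unadjusted p below 0.05. Of 25 complement and coagulation genes, 22 had a positive difference, 7 were higher and 0 lower at that level, and the median was 0.50, made up of 0.20 in IMF and 0.77 in SCF. CD55, which protects cells from complement, read 202.7 to 560.8 in JB and 18.8 to 168.8 in HS (1.51 ± 0.39, SE; adjusted p 0.319, limma). CFB, a protease of the alternative pathway, read 259.2 to 1348 in JB IMF against 108.4 to 222.7 in HS IMF, but overlapped in SCF (1.40 ± 0.41). PLAUR, the urokinase receptor, had 0.82 ± 0.23 and no overlap in either depot.

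Macrophage and myeloid markers, which share the C1q genes with that list, had a positive difference in 14 of 17, with 3 higher and 0 lower at an unadjusted p below 0.05 and medians of 0.05 in IMF and 0.59 in SCF. Their mean log2 level was 7.14 to 8.53 in JB IMF and 7.42 to 7.78 in HS IMF, and 9.01 to 10.12 in JB SCF and 9.01 to 9.49 in HS SCF, so the breeds overlapped in both. FCGR1A, a high-affinity antibody receptor, read 109.0 to 912.9 in JB and 56.0 to 312.8 in HS (1.12 ± 0.28, SE). The part of these cells in the complement values was not tested.

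Of 28 inflammatory cytokines and chemokines, 14 had a positive difference, 6 were higher and 2 lower at an unadjusted p below 0.05, and the median was 0.08. IL6 read 1014, 914.6 and 1217 in JB SCF against 94.0, 138.8 and 156.6 in HS SCF, whereas in IMF JB at 40.8 to 147.8 overlapped with HS at 13.6 to 65.6. Its difference was 1.90 ± 0.37 (SE) with an adjusted p of 0.185 (limma), and 0.0436 without JB IMF 1. CXCL2, which attracts neutrophils, read 151.5 to 716.5 in JB SCF against 26.6 to 66.5 in HS SCF, and 21.4 to 52.8 against 0.44 to 8.75 in IMF (1.67 ± 0.34). CXCL8 had 1.01 ± 0.25 without overlap in either depot. The related GRO1 had 1.23 ± 0.22 at a probe set that can match more than one transcript, while its other 3 ranged from -0.40 to 1.01, and these chemokines share sequence, so their division is uncertain.

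Smooth muscle and pericyte markers had a positive difference in 12 of 12, with a median of 0.57, and 3 were higher at an unadjusted p below 0.05. ACTA2, the smooth muscle actin, read 9969 to 15660 in JB IMF against 4957 to 8861 in HS IMF, and 1186 to 3448 in JB SCF against 724.7 to 1318 in HS SCF, so the IMF samples did not overlap and the SCF samples did. Its difference was 0.96 ± 0.28 (SE) with an adjusted p of 0.359 (limma), and that of the pericyte proteoglycan CSPG4 was 0.90 ± 0.26, with -0.31 and -0.27 at its other 2 probe sets. Collagens and other matrix genes had a positive difference in 23 of 33, with 5 higher and 0 lower and a median of 0.16; COL12A1, a fibril-associated collagen, had 0.96 ± 0.34 (-0.17 and 0.71 at its other 2 probe sets) and FBLN1 (fibulin) 0.58 ± 0.21. The part of smooth muscle cells in the LTBP2 difference was not tested. The mean log2 level of smooth muscle and pericyte markers was 10.63 to 11.47 in JB IMF against 9.89 to 10.67 in HS IMF. JB IMF 2, at 10.63, lay just below HS IMF 1, at 10.67, so the breeds overlapped in IMF as well as in SCF.

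Heat shock genes had a positive difference in 18 of 23 (median 0.21) and cytosolic ribosomal proteins in 22 of 26 (median 0.19), the latter with 1 higher and 0 lower at an unadjusted p below 0.05. HSPH1, a large chaperone, had 0.81 ± 0.26 (SE), and its other 3 probe sets, all dim, had -0.28 to 0.37. The eIF-4E ratio given above moved with breed as well, and its part in these lists was not tested.

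**Figure D5:**
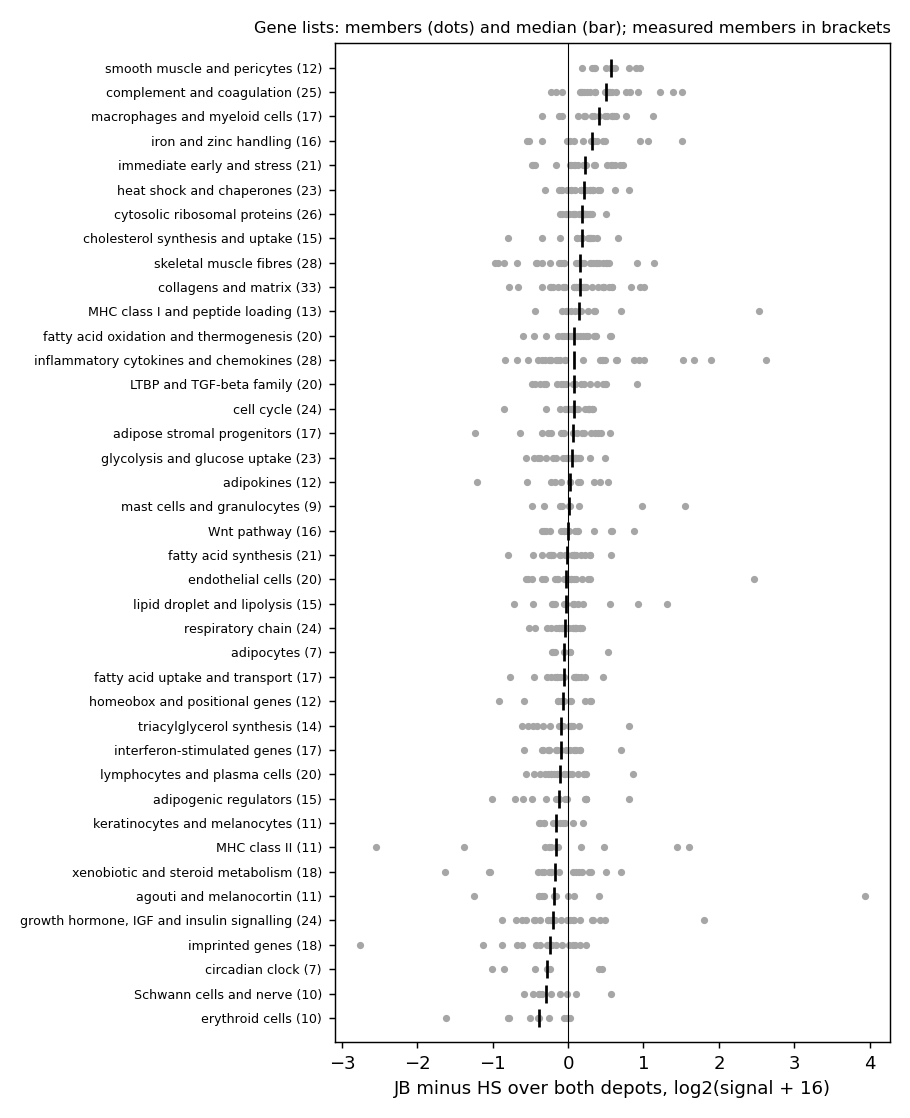
JB minus HS difference over both depots, log2(signal + 16), of the members (grey points) of 40 gene lists, each gene through its brightest probe set, with the median as a black bar; measured members are in brackets. Medians run from -0.39 (erythroid cells) to 0.57 (smooth muscle and pericytes), and ASIP, BOLA-N and NNAT lie apart from the other members of their lists.

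Of the 40 lists, 21 had a negative median. Erythroid markers, which report blood left in the tissue, had a negative difference in 9 of 10, with a median of -0.75 in IMF and -0.03 in SCF. The embryonic globin gene HBE1 read 59.5 to 82.8 in JB IMF against 115.8 to 239.6 in HS IMF (-0.79 ± 0.32 over both depots, SE). Of 24 genes of growth hormone, IGF and insulin signalling, 9 had a positive difference, 2 were higher and 3 lower at an unadjusted p below 0.05, and the median was -0.19. The binding protein IGFBP1 had -0.43 ± 0.18 and the growth hormone releasing hormone GHRH -0.70 ± 0.24; GHRH read from 30.1 to 59.4 in JB and from 39.9 to 183.1 in HS.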

How the data were processed

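Per the labels, biotin-labelled RNA of each sample was read on a bovine Affymetrix array. Software listed in the submitters' processing notes is Affymetrix Expression Console 1.1 and GCOS 1.1.1; how signals were summarized and scaled is not given in the sources used here. For 12 samples and 24128 probe sets the authors deposited intensities on a linear scale (2303 are 0), and 0 per-sample columns were left unmapped.

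Here, 112 control probe sets were left out, and log2(signal + 16) was quantile normalized with no filter on dim probe sets. limma 3.58.1 in R 4.3.3 fitted breed and depot additively (9 residual and 4.34 prior degrees of freedom; threshold 0.05 after Benjamini-Hochberg adjustment), and 4 group means for values within depots and the interaction. The number of arrays limits the precision. Of 24016 probe sets, 13292 carried 1 symbol, 86 several and 10638 none; 13283 of 13318 annotated with 1 symbol, controls included, matched by Entrez gene identifier. Gene lists (40) use each gene's brightest probe set and have no test. The scripts were tested on simulated data. Figures used Python 3.11.15, matplotlib 3.10.9, numpy 2.4.6 and pandas 2.3.3, and labels were read with jsonlite 2.0.0.

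Named genes were those that passed; up to 3 members of a described list with the smallest p; the 5 smallest p per direction of the interaction, and of a direction with fewer than 3 calls; and ASIP. The members and lists were chosen with earlier results of these data known. Alternatives changed normalization, pseudocount (1, 64), dim filter (30%, 50%), variance model, weights, covariates and samples. The RNA quality covariate and the removal of 4 HS samples were chosen after seeing the data. Correlations of same-numbered samples across breeds ran from -0.241 to 0.106, so the numbers were not taken to pair samples.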

Additional observations from a re-analysis of the deposited data

Results flagged for a closer look

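The median signal of HS IMF 3, 58.8, lay far from those of the other 5 HS samples, at 77.5 to 86.3. Its gap to the nearest made up 0.679 of the range of the 6 HS samples, above Dixon's critical value at the 95% level. It was the 1 such case among 72 sets of 6 samples screened, those of 32 described probe sets with depot means removed and of 4 array measures. For 6 independent values, chance would give about 1 in 20. The probe sets were chosen by their breed differences and had depot means removed, so this rate does not hold for them.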

How the results depend on the processing

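The 6 probe sets that passed (4 higher, 2 lower) kept their direction in every alternative that tested them. Counts were 5 (4 and 1) on the values as deposited, 8 (5 and 3) with median centring, 6 (2 and 4) with a pseudocount of 1, 2 (1 and 1) with 64, 4 (3 and 1) with 30% or 50% left out as dim or with treat, 3 (2 and 1) with 1 probe set per gene or a muscle marker covariate, and 5 (4 and 1) without the depot term. They were 20 (11 and 9) with array weights, 9 (5 and 4) with weights by breed, 7 (5 and 2) with 4 group means, 11 (8 and 3) without HS IMF 3 and HS SCF 4, and 2 (1 and 1) without JB SCF 6 and HS SCF 5. Of the alternatives added later, the RNA quality covariate gave 16 (13 and 3) and removal of 4 HS samples 30 (22 and 8). Leaving out 1 sample gave 3 to 9 in all, 2 to 7 higher and 1 to 3 lower; 9 came without HS SCF 4, and 3 without JB IMF 3, HS IMF 2 or any JB SCF sample. With the replicate number as a block the count was 2 (1 and 1, ASIP and NNAT), but the numbers do not pair the samples. The interaction count was 0 to 1 when 1 sample was left out, 1 without HS IMF 2 (an unnamed probe set) and 1 without HS SCF 4 (SELE), and 0 in the 7 other settings run for it (values as deposited, median centring, pseudocount 1, 30% left out as dim, trended and robust variance, both array weights); the rest were not run for it. The circadian receptor RORA, which did not pass with all samples (adjusted p 0.465, limma), went from -1.01 ± 0.47 (SE) to 0.29 without the 4 HS samples. Its other 2 probe sets had 0.21 and -0.31 with all samples. The cause of the change was not tested. With 3 arrays a group, differences near the median standard error of 0.22 cannot be seen, and signals near 0 carry no order.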

Other observations

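Immediate early and stress genes, which respond within minutes to stimulation or handling of tissue, had a positive breed difference in 3 of 21 genes in IMF and in 16 of 21 in SCF, with medians of -0.26 and 0.70. The nuclear receptor NR4A1 read 1576 to 1828 in JB SCF and 380.1 to 960.2 in HS SCF, while JB IMF at 1908 to 2744 overlapped with HS IMF at 1159 to 2626. Over both depots its difference was 0.69 ± 0.31 (SE), which did not pass (adjusted p 0.457, limma).

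The circadian repressor NR1D1 read 36.1 to 88.4 in JB SCF and 190.2 to 213.2 in HS SCF, against 47.6 to 98.9 and 33.2 to 103.5 in IMF. Its difference was -0.85 ± 0.29 (SE) over both depots (adjusted p 0.432, limma). Of 7 measured clock genes, 1 was higher and 3 lower at an unadjusted p below 0.05. CYP1A1, an enzyme of xenobiotic metabolism, read 6.09 to 72.2 in JB SCF and 204.0 to 253.8 in HS SCF, and 59.3 to 120.5 against 67.5 to 233.9 in IMF (-1.63 ± 0.40, adjusted p 0.303), and its other 2 probe sets had -0.51 and -0.35. The zinc transporter SLC39A14 read 577.0 to 1630 in JB SCF and 135.2 to 294.4 in HS SCF, with a difference of 1.51 ± 0.37 over both depots (adjusted p 0.304). In each of these genes the SCF samples of the breeds did not overlap, and they were singled out for this after their values were seen. The same held in SCF for 1327 probe sets higher and 1523 lower in JB, of 24016 tested, so it is not particular to these genes.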
